A study of Mus musculus with 2 samples.

Results

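*Car1*, *Car2* and *Car8* are the carbonic anhydrase genes described here, 3 of the 11691 genes counted in single cells of explanted mouse embryos and yolk sacs. They were chosen from the symbol of the gene, with earlier results of these data known, and each was followed by its level in each library, over cells with much and with little *Cpa3* RNA, and by the genes that varied with it. The cells came from C57/BL6 concepti at E8.5 (Theiler stage 12, 5 to 7 somite pairs), in which the embryo proper and the yolk sac were separated and grown at an air-liquid interface for 9 to 10 days, both with SCF, IL-3 and FLT3 ligand at 100 ng/ml. CD31+CD45+c-Kit+CD41- cells were then sorted from the embryo explants (Em-Ex) and from the yolk sac explants (YS-Ex). Each explant type gave 1 droplet library of cells pooled over many concepti, so no value belongs to 1 animal, there is no replicate, and no test was run. The 95% intervals below (exact Poisson for pooled UMIs, Clopper-Pearson for percentages of cells) cover counting error only.

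Carbonic anhydrases are zinc enzymes that turn carbon dioxide and water into bicarbonate and a proton, and so help a cell to move acid and carbon dioxide. CAR1 and CAR2 are cytosolic enzymes known above all from red blood cells, where CAR2 is the faster one, and CAR2 also serves the acid secretion of osteoclasts. CAR8 belongs to the family by sequence but lacks the catalytic activity, and is known for binding the type 1 inositol trisphosphate (IP3) receptor, a calcium channel of the endoplasmic reticulum. *Cpa3* encodes carboxypeptidase A3, a protease of mast cell granules.

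The genes lie apart from each other on mouse genome build mm10 (GENCODE vM21 annotation). *Car1* (ENSMUSG00000027556.15) occupies chr3:14766216-14808368 on the minus strand and *Car2* (ENSMUSG00000027562.12) chr3:14886273-14900770 on the plus strand. *Car13*, another cytosolic member, lies nearby at chr3:14641727-14663002. *Car8* (ENSMUSG00000041261.9) is on another chromosome, at chr4:8143362-8239041 on the minus strand. A processed pseudogene overlaps *Car1* (Gm16399) and another overlaps *Car8* (Gm11799), both on the strand of the host gene. How reads that fit both were counted is not given in the sources used here. No annotated gene overlaps *Car2*.

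Once barcodes outside 1000 to 5000 detected genes, or above 5% of UMIs from mitochondrial genes, were set aside, 3071 Em-Ex cells and 2087 YS-Ex cells remained. A UMI (unique molecular identifier) stands for 1 captured transcript. The libraries held 42752370 and 27031627 UMIs, with a median of 12341 UMIs per Em-Ex cell and 11729 per YS-Ex cell. Of the genes of the sort, a *Kit* UMI was found in 88.9% of cells in Em-Ex and 98.3% in YS-Ex, and an *Itga2b* (CD41) UMI in 13.6% and 13.5%. A *Pecam1* (CD31) UMI was found in 43.9% and 45.6%, and a *Ptprc* (CD45) UMI in 43.0% and 66.5%. The *Kit* level was 262 UMIs per 1000000 in Em-Ex and 963 in YS-Ex. The limit of 40 *Cpa3* UMIs per 10000 UMIs of a cell put 2200 Em-Ex cells (71.6%) and 1946 YS-Ex cells (93.2%) in the *Cpa3*-high group. The *Cpa3*-low cells were 871 in Em-Ex and 141 in YS-Ex, and were deeper in Em-Ex, with a median of 16935 UMIs against 11245 in *Cpa3*-high cells. The limit was part of the choice of groups, so all differences along it are descriptions. All 16 mast cell genes with at least 10 UMIs per 1000000 in 1 of the groups were at least 2-fold lower in *Cpa3*-low cells of Em-Ex, where 7.58% of all such genes were, and 8 of 16 in YS-Ex, where 2.24% of all were. *Cpa3* is itself one of these genes and was lower by the choice of the groups. The libraries shared 35 cell barcodes, of which 33 in Em-Ex and 32 in YS-Ex belonged to cells that were kept. Of the *Cpa3*-low YS-Ex cells, 14 carried a shared barcode. Without the shared barcodes, no level ratio below between libraries or between *Cpa3* groups left its counting interval.

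The 3 genes had 3 different patterns. *Car2* was an Em-Ex gene of *Cpa3*-low cells, *Car8* was spread over many *Cpa3*-high cells and stood higher in Em-Ex, and *Car1* was counted in few cells of either library. Levels are pooled UMIs of the gene per 1000000 UMIs (CPM). *Car1* had 101 UMIs in 28 Em-Ex cells, or 2.36 CPM (1.92 to 2.87), and 99 UMIs in 42 YS-Ex cells, or 3.66 CPM (2.98 to 4.46). *Car2* had 6121 UMIs in 735 Em-Ex cells, or 143 CPM (139.6 to 147), and 327 UMIs in 148 YS-Ex cells, or 12.1 CPM (10.8 to 13.5). *Car8* had 5579 UMIs in 1829 Em-Ex cells, or 130.5 CPM (127 to 134), and 1889 UMIs in 932 YS-Ex cells, or 69.9 CPM (66.8 to 73.1).

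The Em-Ex level was 11.8 times the YS-Ex level for *Car2* (10.6 to 13.3), 1.87 times for *Car8* (1.77 to 1.97) and 0.645 times for *Car1* (0.484 to 0.860). For *Car2* the log2 ratio of 3.57 was 2.87 when the level was a mean over cells and 2.93 when cells were thinned to 3000 UMIs. For *Car1* the log2 ratio of -0.63 was -1.35 when thinned and -1.44 without the 10 cells of each library richest in *Car1*. Over all genes with at least 10 CPM in 1 library, 5.33% were at least 2-fold higher in Em-Ex and 9.84% at least 2-fold lower, with a median log2 ratio of 0.01. *Car2* and *Car8* reached 10 CPM, and of these *Car2* was past 2-fold. The comparison asks how the sorted cells of the embryo and of the yolk sac differ, and with 1 library of each the explant type and the library cannot be told apart.

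**Figure D1:**
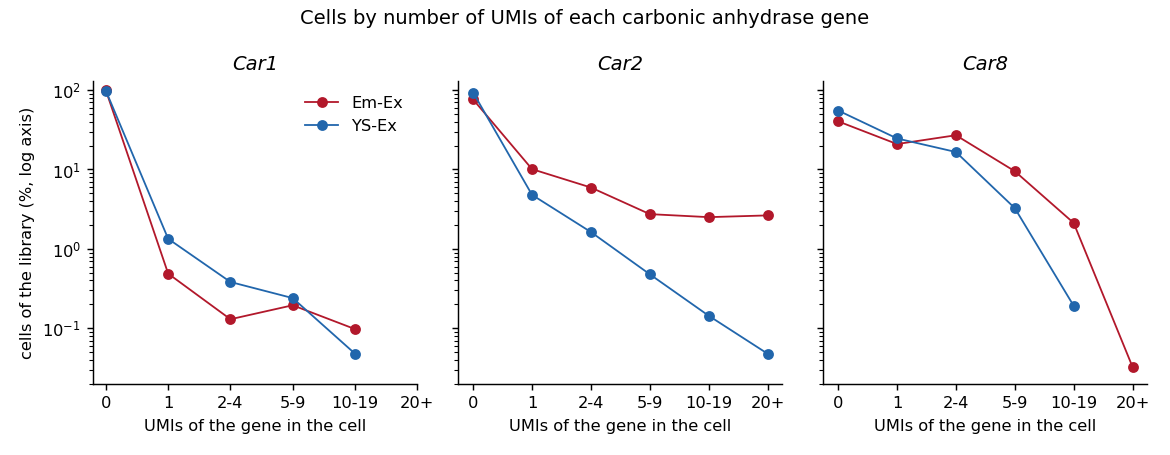
Share of cells (percent of the library, log axis) by the number of UMIs of the gene in the cell, for *Car1*, *Car2* and *Car8*, in Em-Ex (red, 3071 cells) and YS-Ex (blue, 2087 cells). A share of 0 has no point. Of Em-Ex cells, 2.64% held at least 20 *Car2* UMIs, against 0.0479% of YS-Ex cells, while 0.0326% of Em-Ex cells and no YS-Ex cell held as many *Car8* UMIs.

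*Car2*, the fast cytosolic enzyme, was concentrated in few cells. It had a UMI in 23.9% of Em-Ex (22.4 to 25.5) and 7.09% of YS-Ex cells (6.03 to 8.28). When every cell was thinned to 3000 UMIs, the shares were 11.6% and 2.59%. In Em-Ex, 242 cells with at least 5 UMIs, 7.88% of the library, held 86.8% of all *Car2* UMIs, and the richest cell had 170. In YS-Ex, 14 cells had at least 5 UMIs and held 42.5%, and 1 of them had 41. The variance of *Car2* UMIs over cells was 38.9 times the mean in Em-Ex and 8.69 times in YS-Ex. The libraries had close median depths but unlike means of 1.99 and 0.157 *Car2* UMIs per cell, so these values do not compare their unevenness. The richest 1% of cells held 36.2% of the *Car2* UMIs in Em-Ex and 50.2% in YS-Ex.

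*Car2* stood at 314 CPM (306 to 323) in *Cpa3*-low and 47.0 CPM (44.5 to 49.6) in *Cpa3*-high Em-Ex cells, a ratio of 6.69 (6.29 to 7.12). In YS-Ex the levels were 48.7 CPM (39.0 to 60.0) and 9.51 CPM (8.34 to 10.8), a ratio of 5.12 (3.96 to 6.57). Of genes with at least 10 CPM in 1 of the groups, 13.7% were at least 2-fold higher in *Cpa3*-low Em-Ex cells and 8.43% in *Cpa3*-low YS-Ex cells. The YS-Ex ratio rested on few cells, and its log2 value went from 2.36 to 1.15 when the 10 cells of each library with the most *Car2* UMIs were left out. Em-Ex remained above YS-Ex within each group, 4.94 times (4.30 to 5.70) in *Cpa3*-high cells and 6.46 times (5.23 to 8.08) in *Cpa3*-low cells. Few cells weighed on both ratios. In *Cpa3*-high Em-Ex, 22 cells held 51.0% of the *Car2* UMIs, and in *Cpa3*-low YS-Ex 1 cell held 47.1%. The groups were made up of different clusters (described below) in the libraries. *Cpa3*-high cells lay mostly in clusters 3, 4 and 5 in Em-Ex (24.8%, 27.8% and 27.0%) but in clusters 1 and 2 in YS-Ex (44.8% and 42.6%). Over all cells of these clusters, *Car2* was 105, 20.3 and 47.7 CPM in Em-Ex and 5.69 and 16.1 CPM in YS-Ex. *Cpa3*-low cells lay mostly in cluster 6 in Em-Ex (55.3%) but in clusters 2, 9 and 1 in YS-Ex (29.1%, 17.7% and 17.0%). Both ratios were smaller than that over all cells, and *Cpa3*-low cells made up 28.4% of Em-Ex and 6.76% of YS-Ex. Over all genes the median log2 ratio of *Cpa3*-low to *Cpa3*-high was 0.24 in Em-Ex, and against that shift the log2 ratios in Em-Ex were 2.50 for *Car2* and -1.79 for *Car8*.

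Along *Cpa3*, the *Car2* level in Em-Ex went from 434 CPM in the 171 cells with under 1 *Cpa3* UMI per 10000 to 352 CPM at 1 to 5, 199 CPM at 20 to 40, 84.1 at 40 to 80, 37.9 at 80 to 160, 16.2 at 160 to 320 and 7.88 CPM in the 86 cells above 320. The bin of 5 to 20 stood out of this order at 114 CPM. Just under the limit of 40 the level was 234 CPM (213 to 257) in the 134 cells at 30 to 40, and just above it 104 CPM (90.3 to 118) in the 150 cells at 40 to 50. In YS-Ex, *Car2* was 130.5 CPM in the 10 cells under 1, 78.8 CPM at 1 to 5, 20.1 CPM at 5 to 20 and 29.6 CPM at 20 to 40, and between 5.83 and 14.1 CPM in the bins above 40. Few cells carried the first 2 of these YS-Ex bins, with 13 UMIs in 2 cells under 1, and 43 UMIs in 3 cells at 1 to 5, of which 41 lay in 1 cell. Next to the limit, no *Car2* UMI was counted in the 36 YS-Ex cells at 30 to 40, and the 51 cells at 40 to 50 had 12.2 CPM (5.26 to 24.0).

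**Figure D2:**
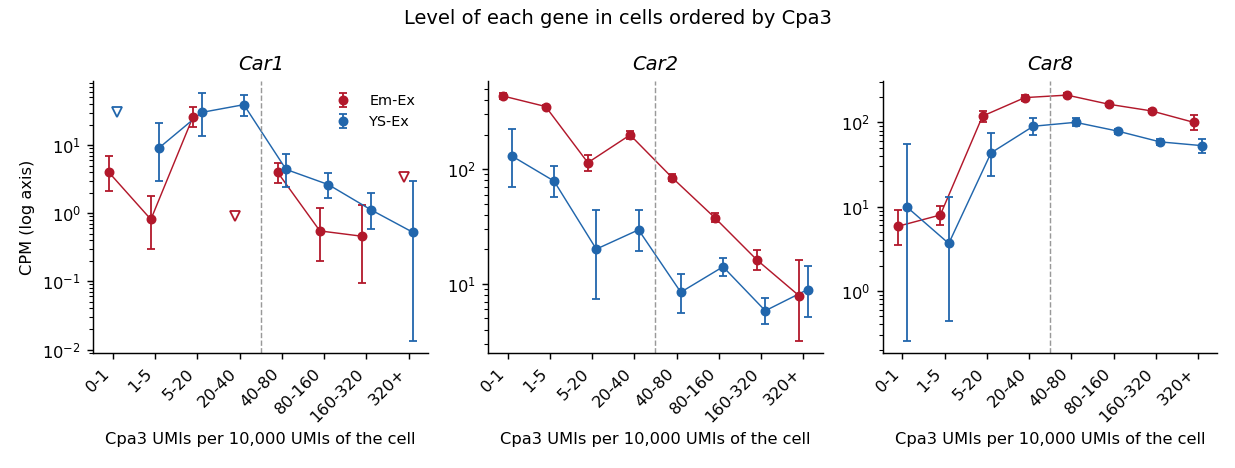
Level (CPM, log axis) of *Car1*, *Car2* and *Car8* in cells ordered by *Cpa3* UMIs per 10000 UMIs, in Em-Ex (red) and YS-Ex (blue), with exact Poisson 95% intervals. The dashed line is the limit of 40, and open triangles are the level that 3 UMIs would give where none was counted. *Car2* went down with *Cpa3* from 434 to 7.88 CPM in Em-Ex, and *Car8* peaked at 40 to 80, with 211 CPM for Em-Ex and 100.3 CPM for YS-Ex.

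Cells were also grouped into 11 clusters from variable genes among which no carbonic anhydrase gene was allowed. The clusters were made without correction between libraries, and most consisted mainly of 1 library, so that such a cluster may be that library. They are given by number with their leading genes. Cluster 6 (491 Em-Ex and 17 YS-Ex cells) had among its leading genes *Hoxa9* and *Hlf*, transcription factors of blood stem and progenitor cells, and *Ccr9*. It held 56.5% of all Em-Ex *Car2* UMIs at 343 CPM (332 to 355), with a UMI in 61.1% of its Em-Ex cells at a median depth of 20544 UMIs. Its 17 YS-Ex cells had 52.3 CPM (27.8 to 89.4), from 13 UMIs in 2 cells. Cluster 11 (47 Em-Ex and 5 YS-Ex cells) had *Acta2*, *Hbb-bs* and *Dcn* among its leading genes and the highest level, 1127 CPM (1051 to 1207) in Em-Ex. Cluster 3, led by the mitosis genes *Gpsm2*, *Cdkn3* and *Nek2*, followed with 105 CPM in its 676 Em-Ex cells. Clusters 4 (*Mrgprb2*, *Mcpt4*) and 7 (*Mcpt1*, *Fcer1a*), whose leading genes include mast cell genes, and cluster 8 (*Mgarp*, *Plod2*) had 14.2 to 20.3 CPM in Em-Ex and a UMI in 9.96% to 11.2% of cells, at median depths of 8353 to 10343 UMIs. The 38 Em-Ex cells of cluster 10, led by the myeloid genes *S100a9*, *S100a8* and *Mrc1*, had 26.6 CPM (15.5 to 42.6) and a UMI in 7.89% at a median depth of 15329. Its 17 *Car2* UMIs lay in 3 cells. In YS-Ex, the clusters of at least 20 cells lay between 5.69 and 16.1 CPM.

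**Figure D3:**
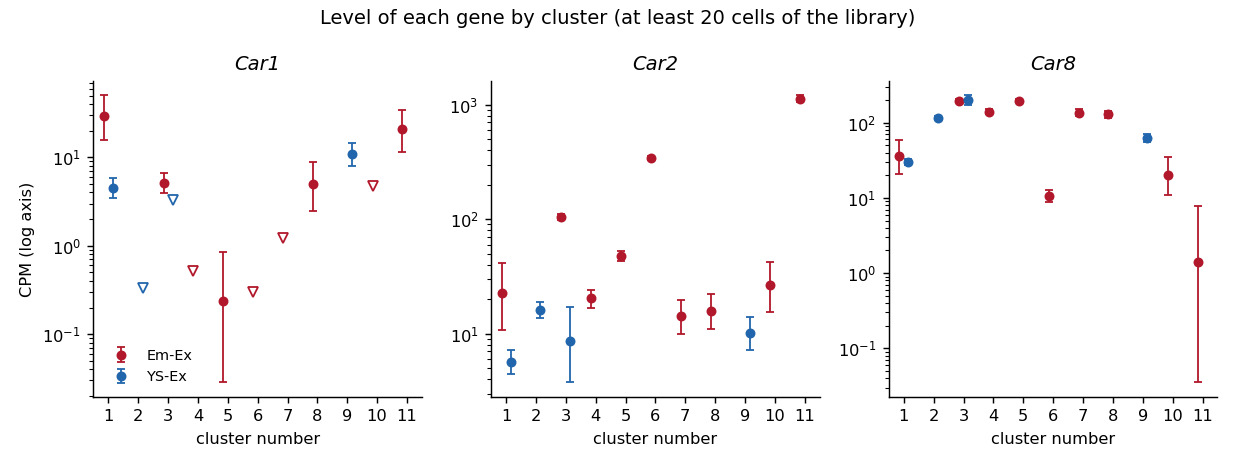
Level (CPM, log axis) of *Car1*, *Car2* and *Car8* by cluster number, for libraries with at least 20 cells in the cluster, Em-Ex in red and YS-Ex in blue, with exact Poisson 95% intervals and open triangles at the level of 3 UMIs where none was counted. *Car2* was highest in clusters 11 and 6 (1127 and 343 CPM), where *Car8* was lowest (1.39 and 10.7 CPM).

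Within cluster 6, *Car2* varied with *Mpo*, myeloperoxidase of neutrophil granules. This split was chosen after the values were seen. In the 248 Em-Ex cells with under 1 *Mpo* UMI per 10000, *Car2* was 639 CPM (616 to 663) with a UMI in 81.9% of cells (76.5 to 86.4). In the 100 cells with 1 to 5 it was 228 CPM (208 to 249.9), in the 115 cells with 5 to 20 it was 27.9 CPM (22.0 to 34.8), and in the 28 cells with at least 20 it was 11.8 CPM (5.11 to 23.3) with a UMI in 14.3%. The median depth rose along the same order, from 17470 to 24196 UMIs, and after thinning to 3000 UMIs the shares were 53.2%, 30%, 7.83% and 0 of 28 cells. *Cpa3* was low in every bin, with 404, 322, 322 and 139 CPM. *Car8* was 15.6 CPM in the first bin and 1.48 CPM in the last. *Ly6a*, which encodes the stem cell antigen Sca-1, went from 621 to 117 CPM and *Hbb-bt* from 2438 to 430.3 CPM over the same bins. Over the 491 cells, genes of high Pearson correlation with *Car2* were *Gimap6* (r = 0.587), *Samsn1* (0.540) and *Ifi203* (0.523), and those of lowest were *Prtn3* (-0.547), *Ifitm1* (-0.535) and *Mpo* (-0.509). *Prtn3*, like *Mpo*, encodes an enzyme of neutrophil granules.

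**Figure D4:**
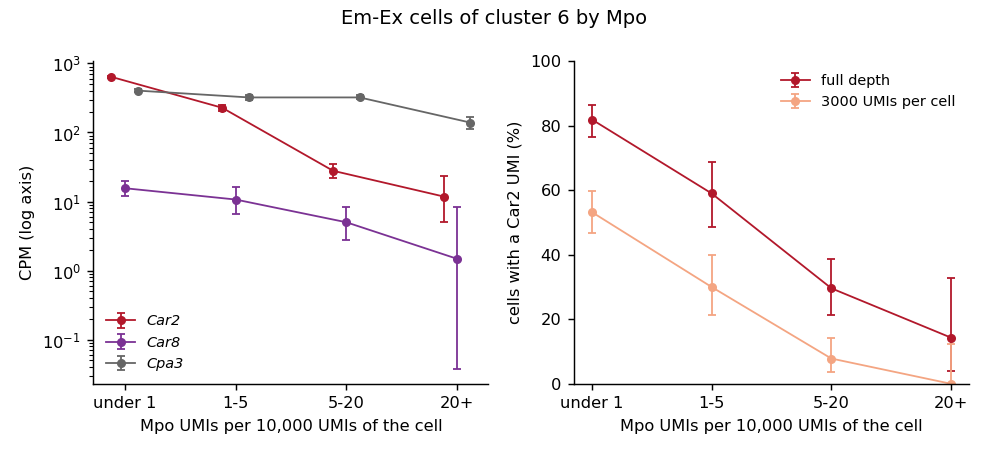
Em-Ex cells of cluster 6 in 4 bins of *Mpo* UMIs per 10000 UMIs, with the level of *Car2*, *Car8* and *Cpa3* (CPM, log axis, exact Poisson 95% intervals) at left and the percent of cells with a *Car2* UMI at full depth and at 3000 UMIs per cell (exact Clopper-Pearson 95% intervals) at right. *Car2* went from 639 to 11.8 CPM over the bins, and *Cpa3* from 404 to 139 CPM.

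Cluster 11 held 2 kinds of cell, and *Car2* was in one of them. Of its 47 Em-Ex cells, 24 had a UMI of *Klf1*, a transcription factor of red cell development, and this split too was chosen after the values were seen. In those 24 cells *Car2* was 1497 CPM (1395 to 1604), with 1 to 81 UMIs and a median of 34.0 per cell, and all 24 had a *Car2* UMI. The same cells held 12580 globin UMIs, and none of the stromal list (*Col1a1*, *Col1a2*, *Col3a1*, *Dcn* and *Sparc*, of which 3 are in the table). In the 23 cells without a *Klf1* UMI *Car2* was 32.9 CPM (12.1 to 71.7), from 6 UMIs, beside 3 globin and 420 stromal UMIs. Their median depth was lower, at 6357 UMIs against 22331. Stromal cells lie outside what the sort was set for. In YS-Ex the only cell of cluster 11 with a *Klf1* UMI had 41 *Car2* and 3033 globin UMIs, and the other 4 had no *Car2* UMI. That cell held 12.5% of all YS-Ex *Car2* UMIs.

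Globin RNA was high in the Em-Ex clusters that were highest in *Car2*, but not in these alone. *Hbb-bt*, a beta globin, was 1784 CPM in cluster 6 and 4193 CPM in cluster 11, with 19.2 and 26.9 *Car2* UMIs per 100 *Hbb-bt* UMIs. The 38 Em-Ex cells of cluster 1 had 942 CPM of *Hbb-bt* beside 22.6 CPM of *Car2*, or 2.40 per 100. In cluster 3 there were 220.5 *Car2* UMIs per 100 *Hbb-bt* UMIs, and in cluster 5, led by *Hapln1*, 106, so that the pair did not keep 1 ratio over the Em-Ex clusters. Of the erythroid genes with at least 10 CPM in 1 group, 6 of 7 were at least 2-fold higher in *Cpa3*-low cells in each library, with a median log2 ratio of 4.49 in Em-Ex and 3.38 in YS-Ex against 0.24 and 0.13 over all genes. The shares of all genes as much higher were 13.7% in Em-Ex and 8.43% in YS-Ex. In YS-Ex, 1 *Cpa3*-low cell of cluster 11 alone held 3033 globin UMIs, and the YS-Ex values were not taken again without it. *Gata1*, a transcription factor that mast cells also use, was the erythroid gene at least 2-fold lower in both, where 7.58% and 2.24% of all genes were. *Hbb-bt* was 1387 CPM in *Cpa3*-low and 52.9 CPM in *Cpa3*-high Em-Ex cells, *Hbb-bs* 329.9 and 6.57 CPM, *Hba-a1* 266 and 26.7 CPM, *Hba-a2* 119 and 5.26 CPM, and *Klf1* 14.1 and 4.09 CPM. In Em-Ex against YS-Ex, 2 of 5 such erythroid genes were at least 2-fold higher, against 5.33% of all genes. The part of globin-bearing cells or free globin RNA in the *Car2* levels was not tested.

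Correlated genes were ranked among those with a UMI in at least 5% of the cells used. Correlations over cells describe 1 library each, and its cells share a library and differ in depth. In Em-Ex the genes of high correlation with *Car2* were *Ifi203* (0.494), *Gimap6* (0.492), *Bcl11a* (0.490), *Hbb-bt* (0.487), *Dusp2* (0.427), *Egfl7* (0.426), *Lmo2* (0.415), *Slco3a1* (0.411) and *Tmem176b* (0.410). *Bcl11a* and *Lmo2* encode transcription regulators of blood progenitors. The lowest were *Fcer1g* (-0.469), *Lgals1*, *Tyrobp* and *Cpa3* (-0.416). The median over 15 mast cell genes was -0.307, and -0.201 after thinning, against 0.035 over all genes at full depth. These relations lay in the *Cpa3*-low cells, where r with *Ifi203* was 0.473 and with *Gimap6* 0.524, while in *Cpa3*-high Em-Ex cells they were 0.039 and 0.028. There the 5 highest were *Hmga2* (0.198), *Crem*, *Hapln1*, *Phgdh* and *Edil3* (0.157). Over all YS-Ex cells the highest r was 0.143 (*Hba-a2*), followed by *Ctla2a* (0.137), *Mxi1*, *Edil3*, *Zbtb12*, *Gm9803*, *Slc27a1*, *Calca*, *Slc43a3* and *Kif20a* (0.103), and the highest in its *Cpa3*-high cells were *Ctla2a* (0.156), *Slc27a1*, *Edil3*, *Alox5ap* and *Fxyd5* (0.123). *Gimap6* was the only gene among the 20 highest of both libraries, at 0.097 in YS-Ex. Correlations this low in sparse counts are no finding.

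*Car8*, the member without catalytic activity, was counted in 59.6% of Em-Ex (57.8 to 61.3) and 44.7% of YS-Ex cells (42.5 to 46.8). After thinning to 3000 UMIs the shares were 29.9% (28.3 to 31.5) and 18.4% (16.7 to 20.1). In the Em-Ex clusters poor in *Car8* (described below with the others), the share with a UMI was 2.13% of 47 cells in cluster 11 at a median depth of 12706 UMIs, 13.6% of 491 cells in cluster 6 at 20544, and 15.8% of 38 cells in cluster 10 at 15329. In YS-Ex it was 5.88% of 17 cells in cluster 6 at 5805 and 6.67% of 15 cells in cluster 10 at 12764. The gene was spread over cells, with no more than 24 UMIs in any Em-Ex cell and 12 in any YS-Ex cell. The richest 1% of cells held 8.35% of its UMIs in Em-Ex and 9.42% in YS-Ex. The variance of its UMIs was 3.68 and 2.41 times the mean.

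*Car8* stood at 171 CPM (166 to 176) in *Cpa3*-high and 58.5 CPM (54.8 to 62.5) in *Cpa3*-low Em-Ex cells, a low-to-high ratio of 0.343 (0.319 to 0.368). In YS-Ex the levels were 71.2 CPM (67.9 to 74.6) and 51.5 CPM (41.5 to 63.1), a ratio of 0.723 (0.580 to 0.892). Of all genes with at least 10 CPM in 1 of the groups, 7.58% were at least 2-fold lower in *Cpa3*-low Em-Ex cells and 2.24% in *Cpa3*-low YS-Ex cells. The excess of Em-Ex was 2.40-fold (2.27 to 2.54) in *Cpa3*-high cells, while in *Cpa3*-low cells the ratio was 1.14 (0.917 to 1.43), within the counting error of no difference.

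The level was not a simple function of *Cpa3*. In Em-Ex it was 5.86 CPM under 1 *Cpa3* UMI per 10000 and 7.97 CPM at 1 to 5, 119 CPM at 5 to 20 and 197 CPM at 20 to 40, reached 211 CPM (202 to 221) at 40 to 80, and then went down to 164, 137 and 100.2 CPM. In YS-Ex it peaked at 100.3 CPM (89.6 to 112) at 40 to 80 and was 53.0 CPM (43.2 to 64.4) above 320. On both sides of the limit of 40 the level was high, with 205 CPM (186 to 227) at 30 to 40 and 241 CPM (221 to 263) at 40 to 50 in Em-Ex and 109.5 and 120.3 CPM in YS-Ex. The ratio of low to high hung on the limit in both libraries. Its log2 value in Em-Ex was -1.55 at the limit of 40, -3.09 at 20 and -0.39 at 80, where it was no longer past 2-fold, and in YS-Ex it was -0.47 at 40, -2.08 at 20 and, in the other direction, 0.31 at 80.

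By cluster, *Car8* in Em-Ex was 129 to 197 CPM in clusters 3, 4, 5, 7 and 8, and 36.1 CPM (20.7 to 58.7) in the 38 Em-Ex cells of cluster 1, 20.4 CPM in cluster 10, 10.7 CPM in cluster 6 and 1.39 CPM in cluster 11. In YS-Ex its level differed between the main clusters, with 117 CPM (109.8 to 124) in cluster 2, led by *Igf2*, *Mlph* and *Dnm3*, against 30.1 CPM (27.1 to 33.3) in cluster 1, led by *Ccdc180*, *Csrp3* and *Layn*, where *Cpa3* was 18138 and 17834 CPM. In cluster 3, the cluster of mitosis genes that held cells of both, *Car8* was 196 CPM (188 to 204) in 676 Em-Ex cells and 199.8 CPM (172 to 231) in 60 YS-Ex cells.

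Genes that varied with *Car8* in Em-Ex included mast cell genes, and the median r over 15 mast cell genes was 0.296 against -0.014 over all genes. That median was 0.132 after thinning to 3000 UMIs and -0.006 over 16 genes within *Cpa3*-high cells. Over all YS-Ex cells the median over 16 mast cell genes was 0.055, against -0.008 over all genes. The 10 highest were *Fam105a* (0.424, and 0.169 after thinning), *Serpinb1a* (0.399), *Fcer1g* (0.398), *Lxn* (0.384), *Ero1l* (0.379), *Hdc* (0.360), *Pxdc1* (0.355), *Ftl1* (0.349), *Cma1* (0.348) and *Lgals1* (0.348). *Fcer1g* encodes the gamma chain of the IgE receptor, *Hdc* the enzyme that makes histamine and *Cma1* mast cell chymase. Over all cells, r with *Cpa3* itself was 0.343 in Em-Ex (0.209 after thinning) and -0.031 in YS-Ex. In the *Cpa3*-low Em-Ex cells, a set chosen by *Cpa3*, it was 0.650. Within *Cpa3*-high cells *Fcer1g* and *Cma1* had r = 0.001 and 0.020, and the highest were *Pxdc1* (0.280), *Slc7a5*, *Serpinb1a*, *Ostc* and *Cotl1* (0.211). In YS-Ex the list was led by *H19* (0.337), an imprinted long noncoding RNA, followed by *Rgs13* (0.320), *Alox5ap* (0.316), *Pxdc1* (0.302), *Mcpt4* (0.299), *Fam105a* (0.293), *Plscr1*, *Ctla2a*, *Atp1b1* and *Cx3cr1* (0.267). In YS-Ex *Cpa3*-high cells, *H19*, *Rgs13*, *Alox5ap*, *Pxdc1* and *Fam105a* led as well (0.337 to 0.278). *Fut8*, *Ccr2* and *Itga4*, of which *Ccr2* and *Itga4* are also leading genes of cluster 1, were among the lowest (-0.296 to -0.260). *Fam105a*, *Ftl1* and *Pxdc1* were among the 20 highest of both libraries. *Igf2*, imprinted like *H19*, had r = 0.259 in YS-Ex and 0.081 in Em-Ex. *Hapln1* had 0.246 in Em-Ex and 0.153 in YS-Ex, and *Fbp2* 0.045 and 0.195.

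**Figure D5:**
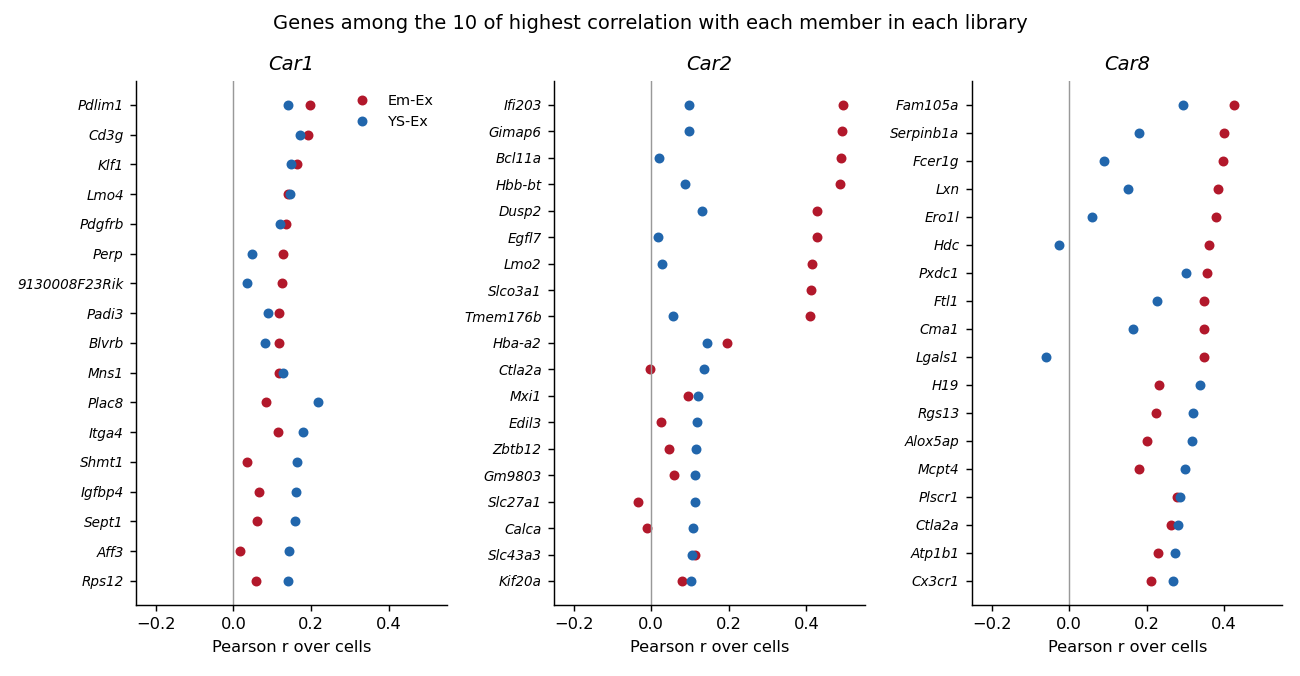
Pearson r over cells (log-normalized UMIs) between *Car1*, *Car2* or *Car8* and genes among the 10 of highest r in each library, in Em-Ex (red) and YS-Ex (blue). A gene listed at 0 in a library has no point there. *Car2* reached 0.494 in Em-Ex and 0.143 in YS-Ex, *Car8* 0.424 and 0.337, and *Car1* 0.197 and 0.217.

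The IP3 receptor genes, whose type 1 product CAR8 binds, were each lower in Em-Ex, the reverse of *Car8*. *Itpr1* was 14.7 CPM against 25.8 CPM in YS-Ex, *Itpr2* 41.2 and 154 CPM, and *Itpr3* 9.29 and 11.9 CPM. Of the 12 genes of the IP3 receptor and store calcium list, 0 were at least 2-fold higher in Em-Ex and 3 at least 2-fold lower, namely *Itpr2* and the calcium sensors *Stim1* (12.2 and 39.7 CPM) and *Stim2* (11.1 and 26.0 CPM), with a median log2 ratio of -0.54 against 0.01 over all genes. Of all genes, 5.33% were as much higher and 9.84% as much lower. The channel genes *Orai1*, *Orai2* and *Orai3* were 31.2, 11.3 and 27.3 CPM, against 22.7, 12.3 and 20.1 CPM in YS-Ex. The pumps *Atp2a2* and *Atp2a3* were 32.1 and 19.3 CPM, against 41.9 and 31.3 CPM, and the phospholipases *Plcg1* and *Plcg2* 15 and 28.7 CPM against 25.7 and 17.1 CPM. In *Cpa3*-low against *Cpa3*-high cells, 2 genes of the list were at least 2-fold higher (*Orai1* and *Plcg2*) and 3 lower (*Itpr2*, *Stim1* and *Atp2a3*) in Em-Ex, and none was past 2-fold in YS-Ex. The shares of all genes were 13.7% higher and 7.58% lower in Em-Ex, and 8.43% and 2.24% in YS-Ex. Over cells, r of *Car8* with *Itpr1* was 0.028 in Em-Ex and 0.079 in YS-Ex.

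*Car1*, the other cytosolic enzyme, was rare in both libraries. It had a UMI in 0.912% of Em-Ex (0.607 to 1.32) and 2.01% of YS-Ex cells (1.45 to 2.71), and after thinning in 0.261% and 0.671%. In Em-Ex its UMIs lay in 32 deposited barcodes, close to the 30 below which a gene stands at 0 in the table. A few cells held most of them. In Em-Ex 9 cells with at least 5 UMIs held 77.2% of all, with a maximum of 16, and in YS-Ex 6 such cells held 50.5%, with a maximum of 17. The level in the *Cpa3*-low cells was 3.64 CPM (2.75 to 4.73) in Em-Ex and 26.3 CPM (19.3 to 35.0) in YS-Ex, against 1.64 CPM (1.20 to 2.20) and 2.06 CPM (1.54 to 2.70) in *Cpa3*-high cells. YS-Ex was 7.22 times Em-Ex (4.79 to 10.8) in *Cpa3*-low cells and 1.25 times (0.825 to 1.91) in *Cpa3*-high cells. The former rested on few cells, as 4 *Cpa3*-low cells held 80.4% of that group's *Car1* UMIs in Em-Ex and 4 held 80.9% in YS-Ex. The low-to-high ratio was 2.22 (1.47 to 3.36) in Em-Ex and 12.8 (8.42 to 19.3) in YS-Ex. With the limit at 80, the Em-Ex log2 ratio was 2.94 in place of 1.15. The YS-Ex ratio came from 47 UMIs in 10 cells, and its log2 value went from 3.67 to 1.29 without the 10 cells of each library richest in *Car1*.

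The 15 cells with at least 5 *Car1* UMIs were pooled to read their other RNAs, a grouping chosen after the values were seen. By their medians, they stood below cells without *Car1* in mast cell genes and above them in S phase genes in both libraries, and they were deeper. Those of Em-Ex had a median of 44.4 *Cpa3* UMIs per 10000 (0 to 90.9) and those of YS-Ex 30.1 (9.79 to 167), against 82.6 and 155 in cells without a *Car1* UMI. The summed mast cell list had a median of 134 UMIs per 10000 in Em-Ex and 113 in YS-Ex, against 385 and 529.7. The 18 genes of the S phase list had a median of 13.9 UMIs per 10000 in Em-Ex and 18.5 in YS-Ex, against 4.21 and 2.38 in cells without a *Car1* UMI. Their median depths were 17347 and 21390 UMIs, against 12230 and 11594. None held an *Mpo* UMI, and those of Em-Ex held no UMI of the stromal list, whose genes are listed at 0 throughout YS-Ex, and *Car8* was 16.4 and 14.5 CPM. The erythroid list had a median of 1.73 UMIs per 10000 (0 to 39.5) in Em-Ex and 1.87 (0 to 7.27) in YS-Ex, against 1.21 and 1.16 in the cells without *Car1*.

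By *Cpa3*, *Car1* was highest at 5 to 20 UMIs per 10000 in Em-Ex, at 26.2 CPM (18.4 to 36.1) from 37 UMIs in 5 cells, and at 20 to 40 in YS-Ex, at 39.1 CPM (26.9 to 54.9) from 33 UMIs in 5 cells. No UMI was counted in the 230 Em-Ex cells at 20 to 40, which allows a *Car1* UMI in up to 1.30% of such cells. Just under and above the limit of 40, *Car1* was at 0 UMIs in 134 cells and 6.09 CPM in Em-Ex, and at 23.8 and 4.57 CPM in YS-Ex. By cluster, *Car1* was 29.4 CPM (15.6 to 50.2) in the 38 Em-Ex cells of cluster 1, 20.8 CPM (11.6 to 34.3) in those of cluster 11 and 5.12 CPM (3.91 to 6.60) in cluster 3, which held 59.4% of its Em-Ex UMIs. These shares depended on the clustering. At resolutions 0.5 and 2, in place of 1, the Em-Ex cluster highest in *Car1* had 56.5 CPM in 66 cells and 61.4 CPM in 56 cells, and held 45.5% of the UMIs in both, while no other cluster held more than 36.6%. In cluster 11 all 15 *Car1* UMIs lay in the cells with a *Klf1* UMI. In YS-Ex it was 10.9 CPM (7.92 to 14.7) in cluster 9, led by histone genes, and 4.55 CPM (3.44 to 5.91) in cluster 1, and these held 43.4% and 56.6% of its UMIs. No *Car1* UMI was found in the 870 YS-Ex cells of cluster 2, which allows a UMI in up to 0.345% of such cells, or in the Em-Ex cells of cluster 6 (0 of 491, up to 0.611%) and cluster 4 (0 of 667, up to 0.450%). These limits are on cells with a UMI, not on cells expressing the gene.

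The genes of highest correlation with *Car1* in Em-Ex were *Pdlim1* (0.197), *Cd3g* (0.192), *Klf1* (0.165), *Lmo4* (0.141), *Pdgfrb*, *Perp*, *9130008F23Rik*, *Padi3*, *Blvrb* and *Mns1* (0.117), and in its *Cpa3*-high cells *Edem3* (0.169), *Pdlim1*, *Plac8*, *Cd3g* and *Lmo4* (0.131). Those in YS-Ex were *Plac8* (0.217), *Itga4* (0.179), *Cd3g* (0.171), *Shmt1*, *Igfbp4*, *Sept1*, *Klf1* (0.148), *Lmo4*, *Aff3* and *Rps12* (0.141), and in its *Cpa3*-high cells *Plac8* (0.174), *Itga4*, *Sept1*, *Cd3g* and *Klf1* (0.130). *Itga4* encodes integrin alpha 4, and *Cd3g* a chain of the T cell receptor complex. *Cd3g*, *Itga4*, *Klf1*, *Lmo4*, *Mns1* and *Pdlim1* were among the 20 highest of both libraries, 6 genes in all. After thinning, r with *Klf1* was 0.071 in Em-Ex and -0.009 in YS-Ex, and relations this weak in counts this sparse are no finding.

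*Car2* and *Car8* were counted together in 381 Em-Ex cells and 82 YS-Ex cells. Of the Em-Ex cells with a *Car8* UMI, 20.8% (19 to 22.8) had a *Car2* UMI, against 28.5% (26.0 to 31.1) of those without, and r between the pair was -0.131. In YS-Ex the order was the opposite, with 8.80% (7.06 to 10.8) and 5.71% (4.45 to 7.21), and r was 0.076. After thinning to 3000 UMIs the shares were 8.39% and 13.0% in Em-Ex and 4.70% and 2.11% in YS-Ex. Within *Cpa3*-high Em-Ex cells the order turned, with a *Car2* UMI in 18.1% of cells with and 9.26% without *Car8*, at median depths of 12655 and 8642 UMIs, and after thinning in 6.43% (4.81 to 8.39) and 5.91% (4.74 to 7.26). *Car1* was found in 0.547% of Em-Ex cells with and 1.45% without *Car8*, and in 1.18% and 2.68% in YS-Ex. After thinning, *Car8* was found in 0 of the 8 Em-Ex cells with a *Car1* UMI (0 to 36.9%) and 0 of 14 in YS-Ex (0 to 23.2%), too few cells to read.

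*Car2* also stood with cell division in *Cpa3*-high Em-Ex cells, a split chosen after the values were seen. Among *Cpa3*-high Em-Ex cells, *Car2* was 84.3 CPM (78.2 to 90.7) in the 519 cells with at least 5 UMIs per 10000 of the G2/M list and 30.3 CPM (27.9 to 32.9) in the other 1681, and *Car8* was 194 CPM and 160.4 CPM. A *Car2* UMI was found in 21.4% of the former and 13.6% of the latter, at median depths of 16037 and 10321 UMIs. The richest 1% of *Cpa3*-high Em-Ex cells (22 cells) held 51.0% of that group's *Car2* UMIs. In YS-Ex these were 7.89 and 9.93 CPM for *Car2* and 77.5 and 69.5 CPM for *Car8*.

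Of 13 other carbonic anhydrase genes looked for, 5 were in the table and none reached 10 CPM. *Car13*, a cytosolic enzyme, was 5.75 CPM (5.06 to 6.52) in Em-Ex and 7.55 CPM (6.55 to 8.66) in YS-Ex. The membrane-bound, extracellular enzymes *Car9* and *Car12* were 3.42 and 2.18 CPM in Em-Ex, against 3.33 and 3.40 CPM in YS-Ex, and *Car7* was 1.33 and 1.55 CPM. *Car5b*, a mitochondrial enzyme, was listed at 0 in Em-Ex and was 1.18 CPM in YS-Ex. In *Cpa3*-low against *Cpa3*-high Em-Ex cells, *Car13* was 3.84 against 6.83 CPM, a ratio of 0.562 (0.412 to 0.757). In YS-Ex *Car13* was 7.83 against 7.53 CPM. *Car7* in the same Em-Ex groups was 0.455 against 1.83 CPM, from 7 and 50 UMIs.

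Transporters of bicarbonate, protons and water, which work beside the enzymes, were mostly within 2-fold between the libraries. Of 25 genes listed, 15 were in the table and 6 reached 10 CPM in 1 library, with 1 at least 2-fold higher in Em-Ex, 0 at least 2-fold lower and a median log2 ratio of -0.21. Over all genes these were 5.33%, 9.84% and 0.01. The higher one was *Slc16a1*, a lactate and proton carrier, at 12.0 CPM, against 5.99 CPM in YS-Ex. Its ratio of 2.01 lay at the edge of the 2-fold limit. *Bsg*, the partner protein of such carriers, was 378 and 284 CPM, *Slc16a3* 22.5 and 22.4 CPM, and the bicarbonate carriers *Slc4a2* 8.84 and 13.9 CPM and *Slc4a7* 9.31 and 17.8 CPM. In *Cpa3*-low against *Cpa3*-high cells, 1 of 5 was at least 2-fold higher in Em-Ex (*Slc16a1*, 19.1 and 8.07 CPM) and 1 at least 2-fold lower. In YS-Ex 2 of 9 were counted as higher, *Slc16a1* (11.2 and 5.63 CPM) and *Rhag* (12.3 and 0.792 CPM). *Rhag* encodes the Rh-associated gas and ammonium channel of red cells. *Slc16a1* passed in YS-Ex only with the 0.5 added to each count, as its ratio from 20 and 142 UMIs was 1.99. Of all genes, 13.7% were at least 2-fold higher in *Cpa3*-low cells in Em-Ex and 8.43% in YS-Ex, and 7.58% and 2.24% at least 2-fold lower.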

How the data were processed

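Mouse explant cells were captured on the 10X Chromium system, with 1 library per explant type and both sequenced together. The submitters' processing notes name bcl2fastq 2.19.1.403, Cell Ranger 2.0.1 and the build mm10. The authors deposited 1 table of raw UMI counts of 11691 genes in 6541 barcodes, in which a gene stands at 0 throughout a library unless at least 30 of its barcodes hold a UMI, so a gene listed at 0 may have been present. Barcodes with under 1000 or over 5000 genes or over 5% mitochondrial UMIs (13 genes) were removed here, by the limits that the study states, which left 5158 cells. The study gives 3504 Em-Ex and 3037 YS-Ex cells, as many as all deposited barcodes, so the cells kept here are fewer than its own. Doublets were not called.

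From these counts, UMIs were summed per library, per group of *Cpa3* UMIs (limit 40 per 10000) and per cluster, with exact Poisson 95% intervals for CPM, Clopper-Pearson intervals for shares and conditional binomial intervals for ratios of CPM. Genes with at least 10 CPM in 1 group were called past 2-fold, with 0.5 added to each count. Where 0 UMIs were counted, 3 are given as what that allows. For shares at equal depth each cell was thinned to 3000 UMIs. Pearson r was taken on ln(1 + UMIs per 10000) over genes with UMIs in at least 5% of cells. Leiden clusters (resolution 1, 20 neighbours, 100 principal components, 2000 variable genes) were made without any carbonic anhydrase gene. Named genes were the members, the measured family, transport, IP3 and erythroid genes, the 10 of highest r per library, the 5 of highest r in *Cpa3*-high cells, those among the 20 highest of both libraries, and leading genes of clusters. A few genes that the rule names are not reported here. Genes of lowest r and those within cluster 6 were added after the values were seen. The members and all lists were chosen with earlier results of these data known. Steps were tested on simulated counts. Python 3.11.15, numpy 2.4.6, scipy 1.17.1, scanpy 1.11.5, igraph 0.11.9 and matplotlib 3.10.9 were used, and coordinates came from GENCODE vM21.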

Additional observations from a re-analysis of the deposited data

Results flagged for a closer look

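Barcodes that the cell filter removed, 433 in Em-Ex and 950 in YS-Ex, entered no comparison of the report other than the alternatives with every barcode or a looser mitochondrial limit, and they held UMIs of all 3 genes above what a count of 0 allows. There were no control libraries to set beside them. In the removed Em-Ex barcodes *Car1* was 3.23 CPM (1.95 to 5.05), *Car2* 106 CPM (98.0 to 115) and *Car8* 65.7 CPM (59.3 to 72.6). In the removed YS-Ex barcodes *Car1* was 5.84 CPM (4.24 to 7.84), *Car2* 7.03 CPM (5.27 to 9.20) and *Car8* 60.7 CPM (55.2 to 66.5). Of the 44 *Car1* UMIs in the removed YS-Ex barcodes, 43 lay in 2 barcodes with over 5000 genes. The 82 removed Em-Ex barcodes with over 5000 genes held *Car2* at 143 CPM (130.3 to 156), the level of the kept cells, and *Car8* at 39.4 CPM (33.0 to 46.7), below the 130.5 CPM of the kept cells.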

How the results depend on the processing

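No paired analysis was possible because each group is 1 library. Of 133 alternative values, 71 stayed within the counting error or, for correlations, within the 95% interval of r, 61 moved further (counts of genes by over 1.5 times) and 1 reversed. Leaving out shared barcodes changed no level ratio by more than its counting error. The alternatives of looking only at *Cpa3*-high or *Cpa3*-low cells, of leaving out the 10 richest cells, and of leaving out shared barcodes within the *Cpa3* groups and for *Car13* were chosen after seeing the data. On the log2 scale, Em-Ex to YS-Ex was -0.63 for *Car1*, and -1.35 after thinning, -2.85 in *Cpa3*-low cells and -1.44 without the 10 richest cells. For *Car2* it was 3.57, and 2.87 as a mean over cells, 2.93 after thinning, 2.31 in *Cpa3*-high and 2.69 in *Cpa3*-low cells and 3.96 without the 10 richest cells. For *Car8* it was 0.90, and 1.26 in *Cpa3*-high and 0.19 in *Cpa3*-low cells. *Cpa3*-low to *Cpa3*-high in Em-Ex was 1.15 for *Car1*, and 2.94 with the limit at 80. For *Car2* it was 2.74, and 3.19 as a mean over cells, 2.50 with median-ratio scaling, 3.18 after thinning, 2.45 and 3.0 with limits of 20 and 80, and 2.60 without the 10 richest cells. For *Car8* it was -1.55, and -1.14 as a mean over cells, -1.79 with median-ratio scaling, -1.15 after thinning, and -3.09 and -0.39 with limits of 20 and 80. In YS-Ex it was 3.67 for *Car1*, and 4.43 with every barcode, 3.01 after thinning, 2.19 and 2.83 with limits of 20 and 80, and 1.29 without the 10 richest cells. For *Car2* it was 2.36, and 1.96 with every barcode, 1.25 with a limit of 80 and 1.15 without the 10 richest cells. For *Car8* it was -0.47, and -0.05 as a mean over cells, -2.08 with a limit of 20 and, reversed, 0.31 with a limit of 80. The cause was not tested. Thinning brought the shares of cells with a UMI in Em-Ex and YS-Ex to 0.261% and 0.671% (*Car1*), 11.6% and 2.59% (*Car2*) and 29.9% and 18.4% (*Car8*). It brought r to 0.122 (*Car1* with *Pdlim1*, Em-Ex), 0.169 (*Car1* with *Plac8*, YS-Ex), 0.385 (*Car2* with *Ifi203*, Em-Ex), 0.169 (*Car8* with *Fam105a*, Em-Ex) and 0.226 (*Car8* with *H19*, YS-Ex). The highest cluster level of *Car1* in Em-Ex was 56.5 CPM at resolution 0.5 and 61.4 CPM at resolution 2, and at resolution 2 that of *Car1* in YS-Ex was 22.1 CPM, that of *Car2* 1497 and 24.2 CPM in Em-Ex and YS-Ex and that of *Car8* in Em-Ex 233 CPM. Of genes past 2-fold, 385 were higher and 711 lower in Em-Ex, against 108 and 246 at a minimum of 50 CPM and 1275 and 1349 with none. In *Cpa3*-low cells of Em-Ex 993 were higher and 549 lower, against 295 and 280, and 2073 and 908. In YS-Ex 635 were higher and 169 lower, against 162 and 87, and 1176 and 441. Depth limits *Car1*, whose UMIs lay in 70 cells of both libraries, and the 141 *Cpa3*-low YS-Ex cells.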
